A study of Arabidopsis thaliana with 10 samples.

Results

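Seedlings labelled ubp12ubp13, a name that gives mutations in a pair of related deubiquitinase genes, were compared with wild-type seedlings of Arabidopsis thaliana. The members are the 4 libraries whose titles name these genotypes, 2 for ubp12ubp13 and 2 for Col-0 (WT), out of 10 libraries in all. The remaining 6 libraries are 2 each of cry2-1, a mutant in the blue light receptor gene CRY2, and of CRY2oe and UBP13oe, whose names give CRY2 and UBP13 overexpression. All plants were of the Columbia ecotype (Col-0), and whole seedlings 4 days old, raised in dim constant blue light (1 µmol m-2 s-1), were frozen for RNA. Poly(A) RNA was sequenced, and the deposited values are FPKM (fragments counted per kilobase of transcript, scaled to library size) for 33557 genes. Of these, 19957 reached 1 FPKM in at least 2 of the 10 libraries, and 19955 of them could be tested between ubp12ubp13 and WT. The labels give neither the alleles of ubp12ubp13 nor the promoters of the overexpression lines, nor whether a line is 1 clone or whether seedlings were pooled. Tissues are mixed in whole seedlings, so fewer cells of a type and less RNA per cell cannot be told apart.

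UBP12 and UBP13 are ubiquitin-specific proteases, enzymes that remove ubiquitin from proteins and so alter which proteins the proteasome degrades. In Arabidopsis they are known to act on proteins of the circadian clock, of hormone signalling and of light signalling. Cryptochrome 2, encoded by CRY2, is a photoreceptor of dim blue light that promotes flowering and restrains the elongation of the hypocotyl, and it is itself degraded after it absorbs blue light. The comparison asks how the transcriptome of seedlings labelled as mutant in both proteases stands, and the series as a whole addresses CRY2 stability and growth.

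The targeted genes were examined first, and their values go against the label. UBP12 (AT5G06600, TAIR10 chromosome 5, 2019107 to 2027945) was at 35.0 and 34.8 FPKM in the WT libraries, at 397 FPKM in ubp12ubp13 replicate 1, and its estimate failed in ubp12ubp13 replicate 2. The 1 usable mutant value was higher than both WT values, with a log2 change of 3.47. It has no replicate, so the limma adjusted p of 2.08e-07 takes its spread from the other genotypes, and with the failed estimate taken as 0, a setting chosen after seeing the data, the log2 change was -0.85 (limma adjusted p = 0.758). The other targeted gene, UBP13 (AT3G11910, TAIR10 chromosome 3, 3761388 to 3770563), held 27.1 and 28.3 FPKM in WT and 24.2 and 23.6 FPKM in ubp12ubp13 (log2 change -0.20 ± 0.05 (SE), limma adjusted p = 0.00664). It stayed above 0 in both mutant libraries, and UBP13oe held 69.0 and 66.1 FPKM. Of the 10 gene models around UBP12 9 were tested, with 3 rises and 3 falls (2 and 3 after rescaling), and around UBP13 7 were tested, with 3 rises and 1 fall (2 and 2 after rescaling). FPKM per gene does not show where along a gene its fragments lie, so these values do not test loss of the proteins, and they do not show whether the libraries hold the genotype they are labelled with. The 2 ubp12ubp13 libraries are therefore called the labelled mutant here, and every direction is that of the libraries so labelled. The receptor gene CRY2 was at 109.8 and 120.0 FPKM in WT and at 84.0 and 87.7 FPKM in the labelled mutant, lower in both libraries than in either WT library (log2 change -0.41 ± 0.05 (SE), limma adjusted p = 1.94e-04).

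Depth, recovered from the steps between low FPKM values, ran over the 10 libraries from 15400000 fragments (labelled mutant replicate 2) to 30250000. Expression correlated at r = 0.992 between the WT replicates and at r = 0.992 between the labelled mutant replicates across genes, which are not independent replicates, against 0.975 to 0.977 between the genotypes. The differences are reported on log2(FPKM + 1), a scale that understates the change of low genes, and were tested with limma over all 10 libraries with Benjamini-Hochberg adjustment. Genes called "higher" or "lower", or said to have risen or fallen, had an adjusted p under 0.05. By that rule 56.8% of tested genes differed, 6905 higher (34.6%) and 4439 lower (22.2%), with 882 higher and 592 lower by more than 1 on the log2 scale. The median log2 change over all genes was 0.09, and scaling the libraries by the median of their ratios brought it to -0.00, with 5371 genes higher (26.9%) and 5827 lower (29.2%). In 76.9% of tested genes both labelled mutant libraries lay beyond both WT libraries on one side, so groups that do not overlap are the common case, and the genes named were chosen by that or by a small p. Of the calls, 9810 were made with the same sign under both scalings and 0 with opposite signs. The replicates are labelled as biological, and p-values measure only the spread between 2 seedling samples per genotype. A gene is said to stand apart where it was also higher, or also lower, in the labelled mutant than in each of UBP13oe, cry2-1 and CRY2oe. Such genes made up 12.8% (higher) and 12.4% (lower) of all genes tested, and these comparisons share the labelled mutant libraries.

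**Figure D1:**
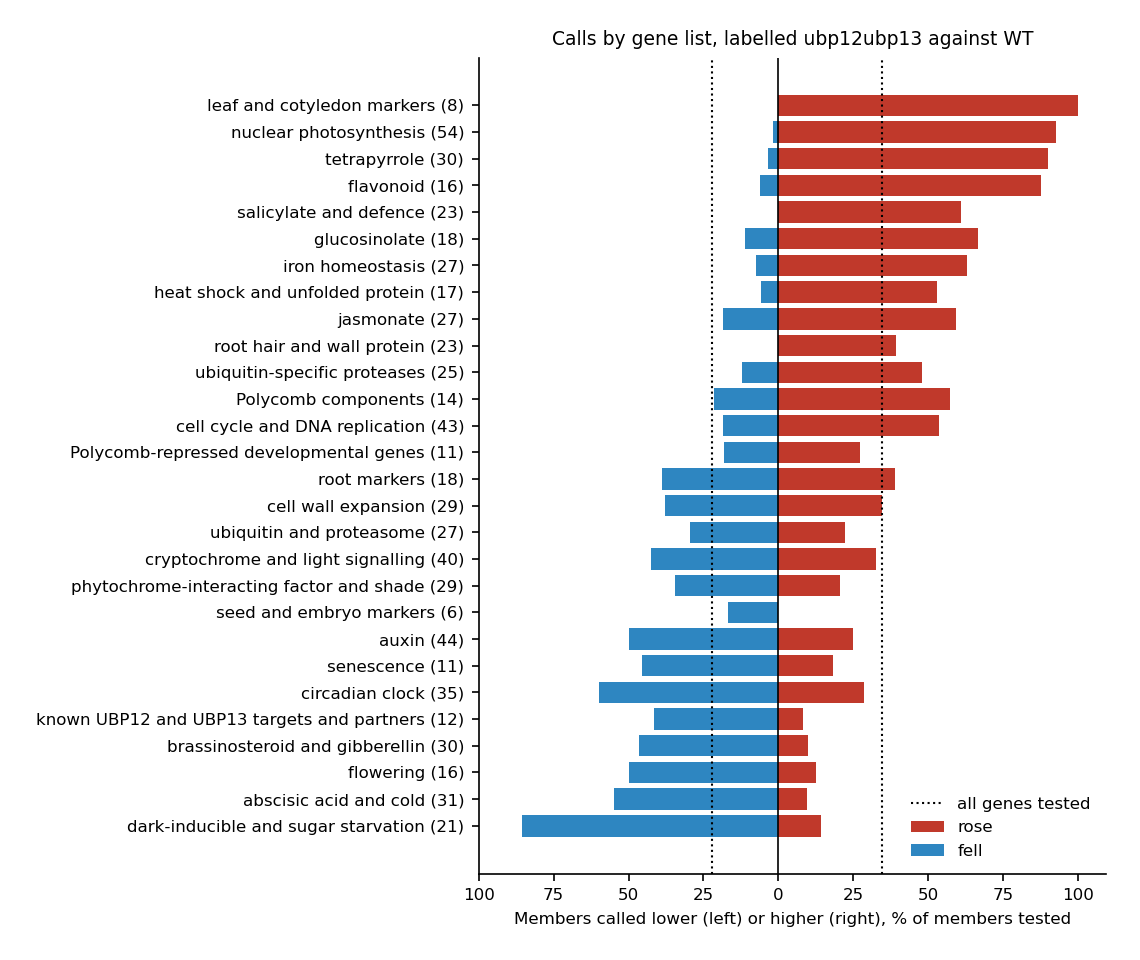
Share of the tested members of each gene list, in percent, that fell (left) or rose (right) in the labelled mutant against WT, with the number tested after each name. Dotted lines mark the shares of all genes tested, 22.2% lower and 34.6% higher, and leaf, photosynthesis, tetrapyrrole and flavonoid lists reach far beyond the right one while the dark-inducible list reaches beyond the left one.

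The genes that fell most were led by enzymes of amino acid breakdown and by genes known from darkness, drought and cold. THA1, a threonine aldolase gene (AT1G08630, TAIR10 chromosome 1, 2743761 to 2747967), was at 179 and 192 FPKM in WT and at 4.59 and 6.29 FPKM in the labelled mutant (log2 change -4.87 ± 0.13 (SE), limma adjusted p = 2.13e-07). The linker histone gene HIS1-3, known for its response to drought, was at 215 and 235 FPKM in WT and at 8.42 and 11.9 FPKM in the labelled mutant (log2 change -4.35 ± 0.12 (SE), limma adjusted p = 2.72e-07). These genes were chosen for large changes without overlap, and UBP13oe held intermediate levels, 94.3 and 76.4 FPKM for THA1 and 62.4 and 66.6 FPKM for HIS1-3. The 12 genes with the largest falls also included BCAT-2, a branched-chain amino acid aminotransferase, DIN2, a dark-inducible beta-glucosidase, COR15B, which encodes a cold-regulated chloroplast protein, and XTH25, which encodes a xyloglucan-modifying enzyme. AT5G66260, an auxin-inducible SAUR gene, fell by 3.16 on the log2 scale. AT1G19530 fell by 3.65 and AT1G04660, which encodes a glycine-rich protein, fell by 3.01. The log2 changes of the 12 ran from -4.87 to -3.01, and 11 of the 12 stood apart. The exception was COR15B, at 36.2 and 57.8 FPKM in WT, 4.78 and 2.98 FPKM in the labelled mutant and 0.332 and 0.431 FPKM in cry2-1.

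The remaining 3 of these falls are shown by their promoters because each holds the G-box CACGTG, the core of the element bound by many light-responsive and abscisic acid-responsive transcription factors. They are AT4G25580, a CAP160 protein gene (chr4:13055933-13056182, plus strand), AT5G05965, annotated as cell wall RBR3-like (chr5:1792635-1792884, minus strand), and AT4G37220, of the WCOR413 cold acclimation family (chr4:17514792-17515041, plus strand). The 250 bases before each annotated start, from RefSeq on TAIR10.1, are printed 5′ to 3′ on the gene's strand with the G-box in capitals.
AT4G25580: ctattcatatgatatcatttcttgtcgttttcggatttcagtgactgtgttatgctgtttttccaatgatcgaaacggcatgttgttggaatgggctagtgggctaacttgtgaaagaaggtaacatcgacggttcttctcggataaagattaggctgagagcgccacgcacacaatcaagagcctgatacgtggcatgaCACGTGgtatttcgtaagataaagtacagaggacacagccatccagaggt
AT5G05965: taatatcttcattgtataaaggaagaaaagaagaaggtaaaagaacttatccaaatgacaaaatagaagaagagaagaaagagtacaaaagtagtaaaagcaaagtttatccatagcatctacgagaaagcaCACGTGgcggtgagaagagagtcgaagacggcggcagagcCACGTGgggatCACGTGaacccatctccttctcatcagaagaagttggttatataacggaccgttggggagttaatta
AT4G37220: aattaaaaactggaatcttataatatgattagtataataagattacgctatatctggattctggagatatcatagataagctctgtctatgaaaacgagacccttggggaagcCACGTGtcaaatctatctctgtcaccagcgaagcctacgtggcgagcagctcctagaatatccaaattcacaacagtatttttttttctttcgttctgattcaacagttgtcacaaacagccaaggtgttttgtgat
The G-box reads the same on both strands, and it was in the 250-base window of 7.43% of 19775 tested genes, of 9.27% of 831 genes that rose by more than 1 and of 7.95% of 591 that fell by more than 1. Among the 12 largest falls 3 windows held it, and among the 12 largest rises 0 did. AT4G25580 fell from 80.0 and 101 FPKM in WT to 3.79 and 2.75 FPKM in the labelled mutant (log2 change -4.43 ± 0.19 (SE), limma adjusted p = 1.16e-06), and UBP13oe held 15.5 and 10.3 FPKM. AT5G05965 was at 20.6 and 20.6 FPKM in WT against 0.659 and 1.79 FPKM, and it overlaps another annotated locus, so its counts are uncertain. AT4G37220 was at 129.5 and 141 FPKM in WT against 14.0 and 16.5 FPKM.

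The 12 largest rises, chosen in the same way, included genes that were almost silent in WT, such as QQS and IRT1. QQS (AT3G30720, TAIR10 chromosome 3, 12349047 to 12349832), an orphan gene known in Arabidopsis for its effect on starch and protein content, was at 0.254 and 0.654 FPKM in WT and at 136 and 125 FPKM in the labelled mutant (log2 change 6.51 ± 0.28 (SE), limma adjusted p = 1.02e-06). With so little signal in WT its log2 change depends on the constant added, and it was 7.98 with 0.1 in place of 1. IRT1, the root iron transporter gene (AT4G19690, TAIR10 chromosome 4, 10707426 to 10709015), was at 0.183 and 0.151 FPKM in WT and at 64.8 and 55.6 FPKM in the labelled mutant (log2 change 5.71 ± 0.20 (SE), limma adjusted p = 5.19e-07). Both labelled mutant libraries were far above both WT libraries for each gene, and the other genotypes were lower too: QQS was at 3.14 and 1.55 FPKM in UBP13oe and IRT1 at 12.4 and 21.4 FPKM. The list also held EXPA2, an expansin that loosens cell walls, ELIP2, a chloroplast early light-induced protein, FRO2, the root ferric chelate reductase, and the transcription factor gene WRKY59. PUB54, which encodes a U-box protein, was at 0.127 and 0 FPKM in WT and at 11.1 and 16.1 FPKM in the labelled mutant. AT1G66855, an X8 domain gene, was listed at 0 in both WT libraries and at 11.99 and 10.6 FPKM in the labelled mutant. The other members were AT2G22942, annotated as a growth factor, AT1G43910, a P-loop hydrolase gene that overlaps another locus, AT5G35940, a mannose-binding lectin gene, and AT4G36430, a peroxidase gene. All 12 stood apart, which their choice by size of rise in part fixes: AT1G66855 and PUB54 passed the filter on low values only through the labelled mutant libraries.

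Genes known to be switched on by darkness and sugar starvation moved almost all one way. Of 21 tested members 18 fell and 3 rose, 85.7% and 14.3% against 22.2% and 34.6% of all genes, and the counts were the same after rescaling. All 21 stood apart, 18 as lower and 3 as higher, where 12.4% and 12.8% of all genes did. The median log2 change was -1.56 against 0.09 over all genes. Against UBP13oe the same 18 members fell and the same 3 rose, where 20.8% of all genes were higher and 32.1% lower. QQS, AT5G51820 (PGM), the plastid phosphoglucomutase gene needed for starch synthesis, and the sugar transporter gene SWEET1 were the 3 that rose.

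Among them, the enzymes of branched-chain amino acid breakdown were among the falls. BCE2 (DIN3), a subunit of the branched-chain keto acid dehydrogenase, was at 111 and 117 FPKM in WT and at 29.3 and 28.4 FPKM in the labelled mutant (log2 change -1.95 ± 0.05 (SE), limma adjusted p = 2.08e-07). MCCB, a subunit of methylcrotonyl-CoA carboxylase in leucine breakdown, was at 180.4 and 196 FPKM in WT and at 40.4 and 41.7 FPKM in the labelled mutant (log2 change -2.17 ± 0.05 (SE), limma adjusted p = 2.08e-07). Both were lower in each labelled mutant library than in each WT library by several-fold. Its partner subunit gene MCCA was at 296 and 312 FPKM in WT against 50.1 and 53.2 FPKM, and BCAT-2 at 351 and 409 FPKM in WT against 25.9 and 27.9 FPKM. MCCA, BCAT-2 and DIN4 overlap other loci, so their values are less certain than those of BCE2 and MCCB. UBP13oe lay between the genotypes for BCE2, at 96.3 and 90.9 FPKM, and for MCCB, at 96.8 and 92.1 FPKM, while cry2-1 held 181 and 173 FPKM of BCE2 and 169 and 173 FPKM of MCCB. A wider list of 12 genes of this pathway, drawn up after values were seen, had 10 falls and 1 rise, 83.3% and 8.33% against 22.2% and 34.6% of all genes. IVD, isovaleryl-CoA dehydrogenase, was at 114 and 131 FPKM in WT and 29.5 and 34.0 FPKM in the labelled mutant.

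The same held for sugar-repressed genes outside that pathway, named here after their values were seen. ASN1 (DIN6), the dark-inducible asparagine synthetase, was at 1019 and 1105 FPKM in WT and at 189.7 and 197 FPKM in the labelled mutant (log2 change -2.45 ± 0.07 (SE), limma adjusted p = 2.50e-07). STP1, a hexose transporter repressed by sugar, was at 770.3 and 783 FPKM in WT and at 126 and 127 FPKM in the labelled mutant (log2 change -2.61 ± 0.07 (SE), limma adjusted p = 2.08e-07). Neither overlapped between genotypes, as was so for 76.9% of all genes tested. The trehalose-phosphate synthase-like genes TPS8, TPS9, TPS11 and AT1G60140 (TPS10) fell by 1.11, 0.82, 1.51 and 0.50 on the log2 scale. Of 11 senescence genes 5 fell, among them NAP, a senescence-promoting transcription factor gene, at 32.2 and 36.2 FPKM in WT and 5.88 and 5.66 FPKM in the labelled mutant (log2 change -2.38 ± 0.10 (SE), limma adjusted p = 1.01e-06). PPH, which encodes pheophytinase of chlorophyll breakdown, fell by 0.46, and 2 senescence genes rose, NAC042 (JUB1), by 1.52, and WRKY6, by 0.26. Only through the labelled mutant libraries did NAC042 pass the filter on low values, which in part fixes its rise. Among all genes tested 22.2% fell and 34.6% rose. The rescaled count of senescence genes that rose was 1, as it was without WT replicate 1 or without labelled mutant replicate 2.

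**Figure D2:**
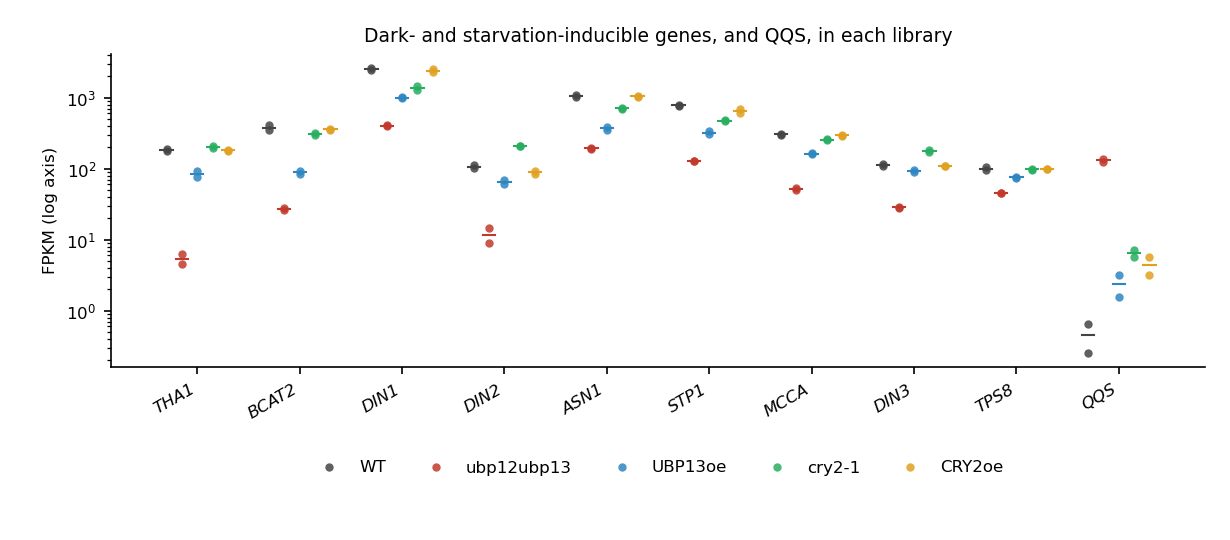
FPKM on a log axis in each of the 10 libraries for dark- and starvation-inducible genes and QQS, points for libraries and short lines for means. The labelled mutant libraries are the lowest for every gene but QQS, where they are the highest.

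Genes of the photosynthetic apparatus encoded in the nucleus rose together. Of 54 tested members 50 rose and 1 fell (41 and 1 after rescaling), 92.6% and 1.85% against 34.6% and 22.2% of all genes. The median log2 change was 0.64 against 0.09 over all genes. As higher 35 stood apart, where 12.8% of all genes did. Lhca6, an antenna protein of photosystem I, was at 49.8 and 45.9 FPKM in WT and at 155 and 154 FPKM in the labelled mutant (log2 change 1.67 ± 0.06 (SE), limma adjusted p = 4.35e-07). NPQ4, which encodes PsbS of photoprotective quenching, was at 469 and 442 FPKM in WT and at 1159 and 1142 FPKM in the labelled mutant (log2 change 1.34 ± 0.05 (SE), limma adjusted p = 7.61e-07). Both genes were higher in each labelled mutant library than in any library of the other genotypes. GAPB, a Calvin cycle dehydrogenase subunit gene, was at 582 and 573 FPKM in WT against 1326 and 1339 FPKM. RBCS2B, a small subunit of Rubisco, was at 1276 and 1161 FPKM in WT against 4466 and 4489 FPKM, though it shares sequence with RBCS1B and RBCS3B and the counting could divide fragments among them. The member that fell, PSAE-2, a photosystem I subunit gene that overlaps another locus, changed by -0.22 (limma adjusted p = 0.0294), and it was not called without WT replicate 1 or without labelled mutant replicate 2. The 3 without a call, AT1G76570, PSBR and PSBW, had log2 changes of 0.06, 0.00 and -0.00.

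Chlorophyll synthesis genes moved with them. Of 30 tested tetrapyrrole genes 27 rose and 1 fell (24 and 1 after rescaling), 90.0% and 3.33% against 34.6% and 22.2% of all genes. The median was 0.94, and 22 risers stood apart, where 12.8% of all genes did as higher. The gene of the H subunit of magnesium chelatase, GUN5 (AT5G13630, TAIR10 chromosome 5, 4387334 to 4392227), was at 133 and 124 FPKM in WT and at 498 and 472 FPKM in the labelled mutant (log2 change 1.91 ± 0.05 (SE), limma adjusted p = 2.67e-07). CHLI1, another subunit of that enzyme, was at 87.3 and 90.6 FPKM in WT against 254 and 245 FPKM. Protochlorophyllide oxidoreductase C, encoded by POR C, acts in light and was at 35.6 and 34.4 FPKM in WT against 95.9 and 94.9 FPKM. CH1, chlorophyllide a oxygenase, which makes chlorophyll b, was at 55.3 and 56.7 FPKM in WT against 149.8 and 145 FPKM. None of these 4, named for a small p, overlapped between genotypes, as was so for 76.9% of all genes tested. The enzyme that opens the pathway, glutamyl-tRNA reductase, is encoded by HEMA1, which rose by 1.22. The exception was TED4 (HO1), the heme oxygenase of phytochrome chromophore synthesis, which fell by 0.42 (limma adjusted p = 3.75e-05), while HY2, the next enzyme of that branch, changed by -0.03 and passed no test.

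Leaf markers moved in the same direction. All 8 leaf and cotyledon markers rose (7 after rescaling), where 34.6% of all genes did, and 7 of them are also on the photosynthesis list. Their summed level was 25338 and 23175 FPKM in WT against 49397 and 46933 FPKM in the labelled mutant. The list includes CA1, a carbonic anhydrase gene, and RCA, Rubisco activase, at 1747 and 1548 FPKM in WT and 5452 and 5597 FPKM in the labelled mutant. The summed level of 18 root markers moved the other way, from 531 and 500.0 FPKM to 357 and 351 FPKM, and none of these markers was at 0. The part of this balance of tissues in the rise of photosynthesis genes was not tested. In poly(A) RNA, transcripts of the plastid genome took 8.57% and 11.2% of summed FPKM in WT and 16.2% and 15.5% in the labelled mutant, a difference of 5.94 percentage points (exact permutation test, p = 0.333, the smallest 2 against 2 libraries allow). Over the 60 plastid protein genes of 300 bp or longer alone the difference was 0.966 percentage points. Of 77 plastid-encoded genes tested 70 rose and 0 fell, 90.9% and 0% against 34.6% and 22.2% of all genes. Only 1 stood apart, where 12.8% of all genes did as higher, and in cry2-1 and CRY2oe plastid transcripts took 16.9% to 18.0% of summed FPKM.

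**Figure D3:**
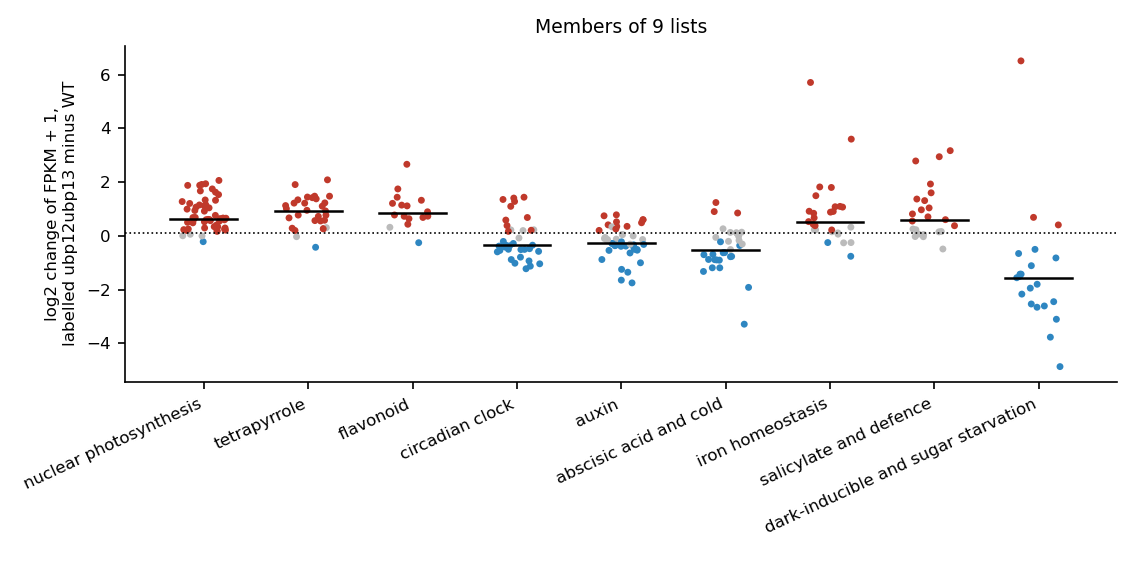
Log2 change of FPKM + 1, labelled mutant minus WT, for every tested member of 9 lists, 1 point per gene, red where higher, blue where lower and grey where not called. Horizontal lines are list medians and the dotted line is the median of all genes, 0.09. Most photosynthesis and tetrapyrrole genes lie above it and most dark-inducible genes below it, with QQS and IRT1 the highest points.

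Flavonoid genes, which make sunscreen pigments, also rose. Of 23 genes listed 16 were tested, and 14 rose and 1 fell under both scalings, with a median of 0.84. As shares, 87.5% rose and 6.25% fell, against 34.6% and 22.2% of all genes. TT4, chalcone synthase, the first committed enzyme, was at 9.004 and 6.14 FPKM in WT and at 45.1 and 61.3 FPKM in the labelled mutant (log2 change 2.66 ± 0.19 (SE), limma adjusted p = 1.24e-05), although it overlaps another locus. C4H, cinnamate 4-hydroxylase, was at 71.3 and 71.7 FPKM in WT against 132 and 136 FPKM (log2 change 0.90 ± 0.05 (SE), limma adjusted p = 4.25e-06). PAL2, phenylalanine ammonia-lyase, was at 28.8 and 24.9 FPKM in WT against 62.7 and 63.7 FPKM, and UGT78D1, a flavonol rhamnosyltransferase, at 6.03 and 5.21 FPKM in WT against 12.1 and 14.7 FPKM. Each labelled mutant library lay above each WT library for all 4, and groups did not overlap in 76.9% of all genes tested. CRY2oe held more TT4 still, 76.1 and 86.2 FPKM, and cry2-1 less, 1.297 and 1.38 FPKM. The regulator gene MYB111 rose by 1.14, its relative MYB12 changed by 0.32 without passing, and TTG1, a general regulator, fell by 0.25. With a mean of at least 5 FPKM required, 9 members rose.

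In the circadian clock list the morning genes CCA1 and LHY rose and the evening genes TOC1 and BOA fell. The clock is a loop in which morning genes such as CCA1 and LHY repress evening genes such as TOC1, and evening proteins repress morning genes in turn. Of 35 tested clock genes 10 rose and 21 fell (8 and 22 after rescaling), with a median of -0.35 against 0.09 over all genes. CCA1 (AT2G46830, TAIR10 chromosome 2, 19245672 to 19248914) was at 18.5 and 17.3 FPKM in WT and at 51.8 and 48.6 FPKM in the labelled mutant (log2 change 1.44 ± 0.06 (SE), limma adjusted p = 9.97e-07). TOC1 (AT5G61380, TAIR10 chromosome 5, 24675064 to 24678550) was at 98.1 and 105 FPKM in WT and at 49.1 and 48.9 FPKM in the labelled mutant (log2 change -1.04 ± 0.05 (SE), limma adjusted p = 1.17e-06). Neither overlapped between genotypes, as was so for 76.9% of all genes tested, CCA1 being higher and TOC1 lower in both labelled mutant libraries. CCA1 stood apart, but TOC1 did not, as cry2-1 held 52.5 and 51.6 FPKM. BOA, an evening transcription factor gene, was at 34.9 and 38.3 FPKM in WT against 15.3 and 14.9 FPKM, and RVE8, a morning-phased activator gene, at 16.2 and 18.9 FPKM in WT against 46.8 and 46.0 FPKM. The seedlings stood in constant light and the labels give no hour of sampling, so amplitude, phase and level cannot be told apart.

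The promoters of 4 falling clock genes are shown because each holds the evening element AAATATCT, to which CCA1 and LHY are known to bind. They are BOA (chr5:24003638-24003887), AT1G20620 or CAT3, a catalase with an evening peak (chr1:7142722-7142971), TOC1 (chr5:24674713-24674962) and FKF1, a blue light receptor of the flowering pathway (chr1:25508389-25508638), all on the plus strand and chosen after values were seen. Windows and source are as for the G-box promoters, and capitals mark the element, AAATATCT or its reverse complement AGATATTT.
BOA: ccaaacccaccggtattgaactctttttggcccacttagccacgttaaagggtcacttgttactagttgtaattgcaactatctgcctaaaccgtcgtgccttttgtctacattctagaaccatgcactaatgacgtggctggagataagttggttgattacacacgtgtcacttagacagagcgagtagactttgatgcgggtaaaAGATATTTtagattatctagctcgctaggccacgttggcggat
AT1G20620: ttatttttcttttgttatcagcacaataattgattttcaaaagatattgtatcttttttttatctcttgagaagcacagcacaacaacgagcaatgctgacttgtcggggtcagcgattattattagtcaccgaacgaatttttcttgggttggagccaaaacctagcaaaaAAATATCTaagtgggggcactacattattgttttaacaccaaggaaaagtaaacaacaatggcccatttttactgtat
TOC1: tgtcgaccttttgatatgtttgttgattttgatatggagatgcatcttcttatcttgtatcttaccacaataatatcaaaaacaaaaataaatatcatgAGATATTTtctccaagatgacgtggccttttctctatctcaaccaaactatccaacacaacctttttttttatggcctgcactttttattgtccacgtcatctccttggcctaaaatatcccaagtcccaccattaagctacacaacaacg
FKF1: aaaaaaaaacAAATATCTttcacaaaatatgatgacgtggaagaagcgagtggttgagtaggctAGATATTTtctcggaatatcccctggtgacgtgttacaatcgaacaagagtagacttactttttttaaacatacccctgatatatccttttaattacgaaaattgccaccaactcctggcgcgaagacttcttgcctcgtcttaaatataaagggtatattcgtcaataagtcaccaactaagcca
The element, searched on both strands, was in 4.85% of 19775 windows of tested genes and in 8.29% of 591 genes that fell by more than 1. Among the 21 clock genes that fell it was in 9 windows (42.9%), those of TOC1, PRR5, PCL1 (LUX), BOA, ELF4, FKF1, GRP7, AT4G39260 and AT1G20620. Several of these genes are textbook examples of the element, so the share describes a known group. AT1G20620 was at 1842 and 1861 FPKM in WT and at 900.3 and 798 FPKM in the labelled mutant, and FKF1 at 17.5 and 17.0 FPKM in WT against 8.45 and 7.59 FPKM, above the 5.80 and 5.09 FPKM of cry2-1. The evening complex genes PCL1 and ELF4 fell by 0.93 and 0.88 on the log2 scale, and ELF3, which overlaps another locus, by 0.54.

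Other morning genes rose with CCA1. LHY was at 19.7 and 15.4 FPKM in WT and at 48.3 and 47.3 FPKM in the labelled mutant (log2 change 1.41 ± 0.10 (SE), limma adjusted p = 9.45e-06). The transcriptional coactivator genes AT5G64170 (LNK1), AT3G54500 (LNK2) and AT3G12320 (LNK3) were higher in the labelled mutant, LNK1 by 0.68 and LNK3 by 1.28, while AT3G54500, at 60.9 and 62.8 FPKM in WT and 139 and 129 FPKM in the labelled mutant, overlaps another locus. Among the pseudo-response regulators PRR9, the earliest in the day, rose by 0.59, while PRR7, PRR5 and PRR3 fell by 0.60, 0.35 and 0.42. Of the ZEITLUPE family of blue light receptors ZTL fell by 0.50 (limma adjusted p = 1.01e-04) and LKP2, which overlaps another locus, by 0.51. GI, which stabilises ZTL protein, fell by 0.28 (limma adjusted p = 0.0131), a call lost without WT replicate 1 (0.059) and without labelled mutant replicate 2 (0.0647).

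**Figure D4:**
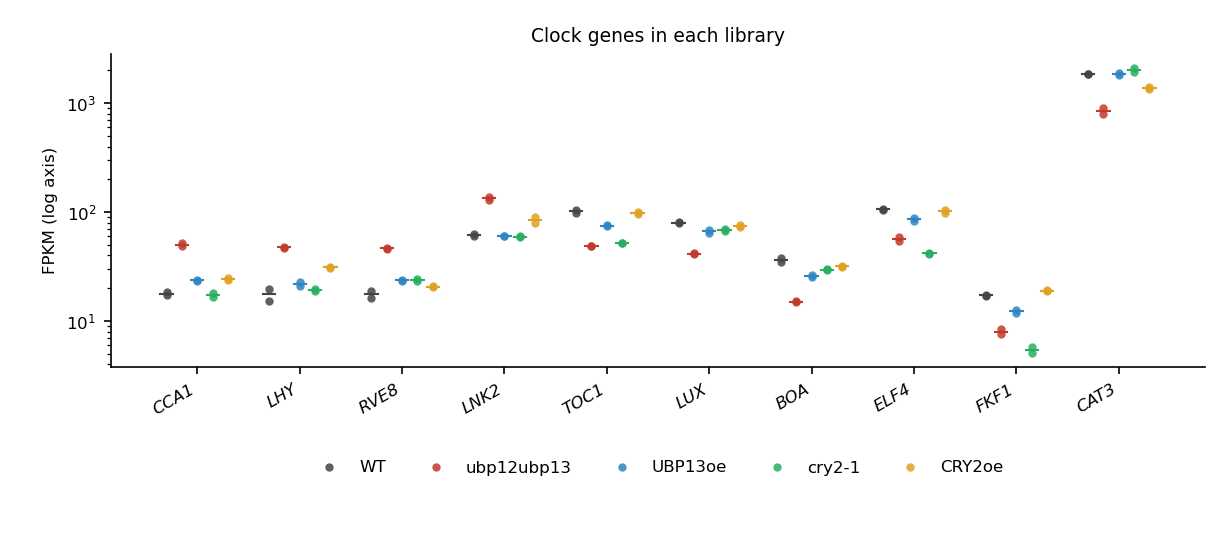
FPKM on a log axis in each of the 10 libraries for clock genes, points for libraries and short lines for means. CCA1, LHY, RVE8 and LNK2 are highest in the labelled mutant, LUX, BOA and CAT3 are lowest there, and FKF1 and ELF4 are lower still in cry2-1.

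Downstream of clock and photoreceptors, flowering repressors changed in mixed directions. Of 20 flowering genes listed 16 were tested, with 2 rises and 8 falls (2 and 9 after rescaling). SVP, a repressor of flowering, was at 36.7 and 39.1 FPKM in WT and at 16.0 and 15.4 FPKM in the labelled mutant (log2 change -1.22 ± 0.06 (SE), limma adjusted p = 2.67e-06). FLC, the vernalisation-responsive repressor, was at 58.3 and 61.3 FPKM in WT against 31.5 and 35.1 FPKM, and its relative MAF5 moved upward, at 2.55 and 2.66 FPKM in WT against 8.49 and 9.58 FPKM. TEM1, a repressor of the florigen gene, was at 70.2 and 70.5 FPKM in WT against 48.6 and 48.3 FPKM. The 4 genes did not overlap between genotypes, as was so for 76.9% of all genes tested. CO, the photoperiod activator, changed by -0.06 without passing. Polycomb group proteins, which repress developmental genes, have been linked to these proteases in Arabidopsis. Of 14 component genes 8 rose and 3 fell (5 and 4 after rescaling), 57.1% and 21.4% against 34.6% and 22.2% of all genes. VRN5, an accessory factor, rose by 0.59, RING1A, a histone H2A ubiquitin ligase gene, by 0.41, and DRIP2 by 0.57. The falls were 1 without WT replicate 2 and 1 without labelled mutant replicate 2. Of 29 genes known to be repressed by Polycomb only 11 were tested, with 3 rises and 2 falls, the rises being in ABI3, AFO (YAB1) and CUC2. Only through the labelled mutant libraries did CUC2 pass the filter on low values, which in part fixes its rise. CUC2 was not called without WT replicate 2 (limma adjusted p = 0.126) or without either labelled mutant replicate, and the falls were 1 without WT replicate 1.

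Of 40 tested light signalling genes 13 rose and 17 fell (12 and 19 after rescaling), 32.5% and 42.5% against 34.6% and 22.2% of all genes, and the median was 0.02. The B-box genes, which encode zinc finger proteins around the regulator HY5, were divided. BZS1 (BBX20) was at 26.8 and 29.2 FPKM in WT and at 8.41 and 8.21 FPKM in the labelled mutant (log2 change -1.64 ± 0.09 (SE), limma adjusted p = 3.05e-06), and STH (BBX25), which overlaps another locus, at 27.2 and 28.4 FPKM in WT against 58.3 and 63.1 FPKM. RUP1, a repressor of UV-B signalling, was at 25.6 and 25.2 FPKM in WT against 11.7 and 10.96 FPKM, while its relative RUP2 rose by 0.76. Each of the 3 genes BZS1, STH and RUP1 had groups that did not overlap, as did 76.9% of all genes tested. STH and RUP1 stood apart, but BZS1 did not. UBP13oe held 10.6 and 9.34 FPKM of BZS1, not called different from the labelled mutant (limma adjusted p = 0.0568). LRB1 and POB1 (LRB2), ubiquitin ligase adaptors that target phytochrome and cryptochrome, fell by 0.80 and 0.84. Of the photoreceptors PHYA fell by 0.83 and PHYB rose by 0.50. CRY1 fell by 0.18 (limma adjusted p = 0.0111), a call lost without WT replicate 2 (0.0594). The cryptochrome degradation partner genes COP1 and SPA2 had log2 changes of 0.06 and 0.14 and passed no test, whereas SPA1 rose by 0.54 and SPA3 by 0.62.

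Of 12 genes whose proteins are known targets or partners of the proteases 1 rose and 5 fell (0 and 7 after rescaling). The shares were 8.33% and 41.7%, against 34.6% and 22.2% of all genes. The 5 were ZTL, CRY2, TFL2, GI and NAC6 (ORE1), with log2 changes of -0.50, -0.41, -0.22, -0.28 and -0.38. TFL2 encodes the Polycomb protein LHP1, and its call was lost without labelled mutant replicate 2 (limma adjusted p = 0.0642), where 3 members fell. DAR2, a peptidase of organ growth, rose by 0.32 and was not called after rescaling or without WT replicate 1 or labelled mutant replicate 1. BES1, BRI1, MYC2 and PIF7 passed no test, with log2 changes of 0.12, -0.09, -0.09 and 0.10.

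Of 27 ubiquitin and proteasome genes 6 rose and 8 fell (2 and 10 after rescaling), 22.2% and 29.6% against 34.6% and 22.2% of all genes, with a median of -0.00. The 4 with the smallest adjusted p were polyubiquitin genes, which supply ubiquitin itself, and they fell. UBQ10 was at 1690.3 and 1721 FPKM in WT and at 959 and 970.3 FPKM in the labelled mutant (log2 change -0.82 ± 0.06 (SE), limma adjusted p = 9.15e-06). UBQ3 was at 1709 and 2260.0 FPKM in WT against 653 and 770.4 FPKM, and UBQ4 at 44.9 and 47.9 FPKM in WT against 31.9 and 31.5 FPKM. UBQ14, which overlaps another locus, fell by 0.41 and UBQ11 by 0.32. Both labelled mutant libraries were below both WT libraries for UBQ10, UBQ3 and UBQ4, but the repeats of these genes are nearly identical and counting could divide fragments among them. The falls in this list were 5 without labelled mutant replicate 1. The proteasome subunit genes that rose did so by at most 0.30, for PAD1. Among 25 ubiquitin-specific protease genes, UBP12 and UBP13 included, 12 rose and 3 fell (10 and 5 after rescaling). Beyond UBP12 the largest rise was 0.46, for UBP21.

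PIF4, which encodes the transcription factor that drives hypocotyl elongation, was at 47.8 and 49.2 FPKM in WT and at 22.8 and 21.5 FPKM in the labelled mutant (limma adjusted p = 2.06e-06). Of 29 genes of the phytochrome-interacting factor and shade list 6 rose and 10 fell (4 and 13 after rescaling), 20.7% and 34.5% against 34.6% and 22.2% of all genes. IAA19, an auxin-responsive repressor gene of shade growth, was at 46.0 and 40.7 FPKM in WT against 25.7 and 20.04 FPKM, and XTH17, of cell wall remodelling, at 57.3 and 47.4 FPKM in WT against 22.9 and 25.2 FPKM. PIL1, the early shade marker, rose by 0.68. Both labelled mutant libraries lay below both WT libraries for PIF4, IAA19 and XTH17, and groups did not overlap in 76.9% of all genes tested.

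Auxin genes fell more often than they rose. Of 44 tested genes 11 rose and 22 fell (8 and 27 after rescaling), against 34.6% and 22.2% of all genes, with a median of -0.25. LAX1, an auxin influx carrier, was at 101 and 105 FPKM in WT and at 40.6 and 38.8 FPKM in the labelled mutant (log2 change -1.35 ± 0.04 (SE), limma adjusted p = 4.35e-07). Among genes of auxin-induced repressors, IAA6 was at 10.2 and 9.73 FPKM in WT against 2.79 and 2.24 FPKM, and IAA14 at 31.96 and 36.3 FPKM in WT against 14.3 and 13.3 FPKM. SHY2 (IAA3) fell by 1.00. No gene of these 4 overlapped between genotypes, as was so for 76.9% of all genes tested. On the rising side GH3.3, an auxin-conjugating enzyme, changed by 0.78, and risers numbered 7 without WT replicate 2 and 7 without labelled mutant replicate 1. Of 30 brassinosteroid and gibberellin genes 3 rose and 14 fell (2 and 16 after rescaling). CPD, a brassinosteroid synthesis enzyme, was at 294 and 299 FPKM in WT against 154 and 140.3 FPKM, and the gibberellin receptor genes GID1C and GID1A fell by 0.74 and 0.55. The falls in this list were 9 without WT replicate 2 and 9 without labelled mutant replicate 2, and the rises were 1 without WT replicate 2 and 1 without labelled mutant replicate 1.

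Of 29 cell wall genes tested 10 rose and 11 fell (10 and 12 after rescaling), 34.5% and 37.9% against 34.6% and 22.2% of all genes, so the share that rose was near that of all genes. The expansin gene EXPA1 was at 50.1 and 53.9 FPKM in WT and at 135 and 133 FPKM in the labelled mutant (log2 change 1.35 ± 0.05 (SE), limma adjusted p = 5.17e-07). Among xyloglucan-modifying enzymes XTH32 was at 6.51 and 5.77 FPKM in WT against 25.03 and 31.3 FPKM, while XTH30 was at 155 and 165 FPKM in WT against 64.2 and 66.8 FPKM and XTH24 at 983 and 1001 FPKM in WT against 372 and 379 FPKM. The groups did not overlap for any of the 4, as was so for 76.9% of all genes tested.

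Abscisic acid and cold genes fell more often than they rose, 17 of 31 tested against 3 (19 against 3 after rescaling), with a median of -0.51. The shares were 54.8% lower and 9.68% higher, against 22.2% and 34.6% of all genes. COR413IM1, a cold-regulated chloroplast membrane protein, was at 277 and 309 FPKM in WT and at 84.5 and 69.7 FPKM in the labelled mutant (log2 change -1.92 ± 0.09 (SE), limma adjusted p = 1.66e-06). Of the dehydrin genes, known for drought and cold tolerance, COR47 was at 1434 and 1312 FPKM in WT against 555 and 538 FPKM, and ERD14 at 1202 and 1209 FPKM in WT against 627 and 661 FPKM. COR413-PM1 fell by 0.89. The labelled mutant libraries were the lower pair for all 4, and groups did not overlap in 76.9% of all genes tested. The 3 rises were in RD22, GolS2 and STZ, while the cold regulators CBF1 and CBF2 changed by -0.06 and 0.09 and passed no test.

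Salicylate and defence genes rose, 14 of 23 tested (60.9% against 34.6% of all genes) and 0 falls under both scalings. Their median was 0.60, and 10 stood apart as higher, where 12.8% of all genes did. The isochorismate synthase gene of salicylate synthesis, EDS16 or ICS1 (AT1G74710, TAIR10 chromosome 1, 28070295 to 28074148), was at 3.26 and 4.02 FPKM in WT and at 35.9 and 45.9 FPKM in the labelled mutant (limma adjusted p = 7.21e-07). PBS3, a later enzyme of that route, was listed at 0 in both WT libraries and stood at 5.91 and 5.89 FPKM in the labelled mutant. WRKY46, a defence transcription factor gene, was at 0.142 and 0.279 FPKM in WT against 6.69 and 10.3 FPKM, and CBP60G, a calmodulin-binding activator gene of EDS16, at 1.18 and 2.21 FPKM in WT against 8.43 and 9.81 FPKM. Groups did not overlap in 76.9% of all genes tested, and in each case here the labelled mutant was the higher pair. PBS3 and WRKY46 passed the filter on low values only through its libraries, which in part fixes their rise and their standing apart. PR1, the classic salicylate marker, rose by 1.31, whereas the receptor gene NPR1 changed by 0.15 and passed no test. Without WT replicate 1, 1 member fell. Many of these genes are low: with a mean of at least 5 FPKM required, 5 rose.

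Jasmonate and glucosinolates act in defence against herbivores. Of 27 jasmonate genes 16 rose and 5 fell (13 and 7 after rescaling), 59.3% and 18.5% against 34.6% and 22.2% of all genes. The synthesis genes OPR3 and AOS rose by 0.80 and 1.01, LOX3 from 0.350 and 0.296 FPKM in WT to 2.70 and 2.78 FPKM in the labelled mutant, and the transcription factor gene MYC3 fell by 0.52. LOX3 passed the filter on low values only through the labelled mutant libraries, which in part fixes its rise. OPR3 was at 9.88 and 9.60 FPKM in WT and at 17.1 and 18.24 FPKM in the labelled mutant (log2 change 0.80 ± 0.06 (SE), limma adjusted p = 1.06e-05). Of 30 glucosinolate genes listed 18 were tested, with 12 rises and 2 falls (11 and 3 after rescaling). As shares, 66.7% rose and 11.1% fell, against 34.6% and 22.2% of all genes. MYB28, the regulator of aliphatic glucosinolates, was at 3.43 and 3.52 FPKM in WT and at 13.3 and 11.4 FPKM in the labelled mutant (log2 change 1.57 ± 0.10 (SE), limma adjusted p = 7.27e-06). SUR1 and CYP83B1, synthesis enzymes, rose by 0.64 and 1.08, and AT2G31790, a glycosyltransferase gene that overlaps another locus, by 1.16. The falls, TGG1 and SOT18, numbered 1 without WT replicate 2 and 1 without labelled mutant replicate 1. Among 17 genes of heat shock and protein folding 9 rose and 1, HSFB2A, fell, 52.9% and 5.88% against 34.6% and 22.2% of all genes. The chaperone genes of the endoplasmic reticulum BIP1, CRT1b and PDIL1-2 rose by 0.84, 0.95 and 0.81. BIP1 stood apart, but CRT1b and PDIL1-2 did not. PDIL1-2 was at 9.23 and 8.56 FPKM in WT and at 17.3 and 15.5 FPKM in the labelled mutant. UBP13oe held 16.5 and 14.7 FPKM of it, cry2-1 14.7 and 14.1 FPKM and CRY2oe 17.2 and 16.2 FPKM, none called different from the labelled mutant. Of the 17 genes 4 stood apart as higher and 0 as lower, where 12.8% and 12.4% of all genes did. The falls numbered 0 without WT replicate 2, 0 without labelled mutant replicate 1, 2 without WT replicate 1 and 2 without labelled mutant replicate 2.

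Iron uptake genes of the root, led by IRT1, stood high in the labelled mutant. Plants short of iron switch on the reductase FRO2 and the transporter IRT1 through the transcription factor FRU (FIT) and its partners. Of 27 iron genes 17 rose and 2 fell (14 and 3 after rescaling), 63.0% and 7.41% against 34.6% and 22.2% of all genes. Their median was 0.53. FRO2 was at 0.481 and 0.418 FPKM in WT and at 17.1 and 16.0 FPKM in the labelled mutant (limma adjusted p = 3.27e-06). IRT1 was listed at 0 in cry2-1 and CRY2oe, while UBP13oe held 1.97 and 3.92 FPKM of FRO2, a level between WT and the labelled mutant. YSL1, a metal-nicotianamine transporter gene, was at 5.50 and 5.31 FPKM in WT against 17.2 and 16.9 FPKM, and the ferritin gene FER4, which encodes an iron storage protein, at 41.5 and 41.8 FPKM in WT against 76.6 and 74.1 FPKM. Named after their values were seen, FRU was at 9.05 and 16.9 FPKM in WT against 27.9 and 26.4 FPKM, and its partner bHLH38 at 0.273 and 0.351 FPKM in WT against 3.08 and 4.12 FPKM. Of 18 root markers 7 rose and 7 fell, 38.9% each against 34.6% and 22.2% of all genes, with a median of 0.20. Their summed level was lower, and their part in the iron values was not tested. Ferritins, which accumulate in iron sufficiency, were divided, FER3 and FER2 rising by 0.88 and 0.67 and FER1, which overlaps another locus, falling by 0.76. ILR3, which also overlaps another locus, fell by 0.25, and the falls were 1 without labelled mutant replicate 1.

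**Figure D5:**
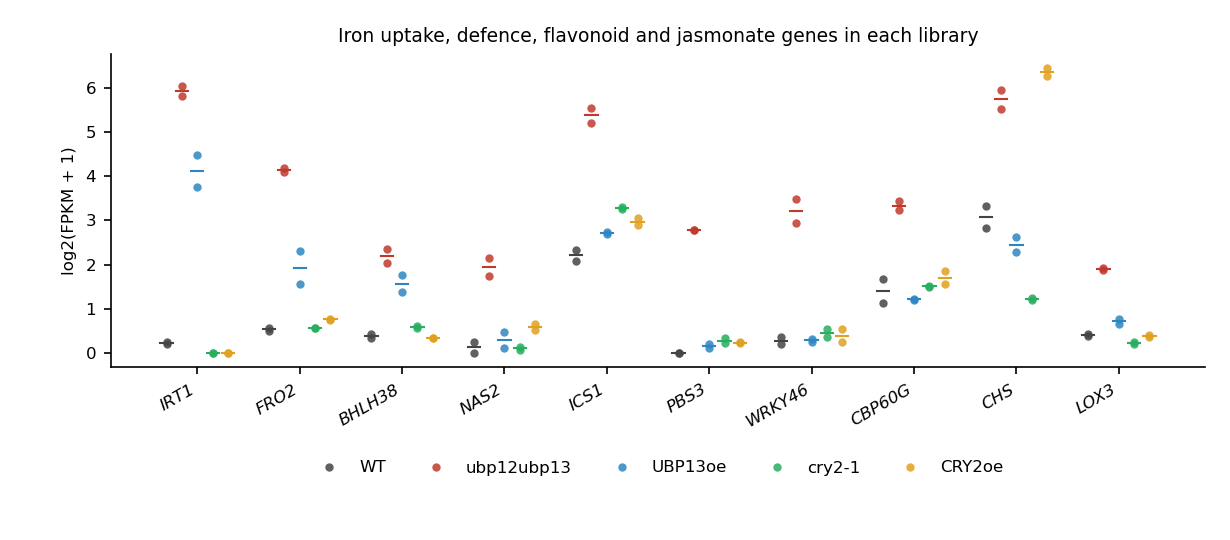
Log2(FPKM + 1) in each of the 10 libraries for iron, salicylate, flavonoid and jasmonate genes, points for libraries and short lines for means. The labelled mutant is the highest genotype for every gene but CHS (TT4), where CRY2oe is higher, and the WT and cry2-1 values of IRT1 and PBS3 are close to 0.

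Root markers moved both ways. Of 18 root markers 7 rose and 7 fell (6 and 7 after rescaling), 38.9% each against 34.6% and 22.2% of all genes. Genes of the Casparian strip, the barrier of the endodermis, were among the falls: CASP5 was at 76.7 and 70.0 FPKM in WT and at 30.4 and 33.3 FPKM in the labelled mutant (log2 change -1.18 ± 0.08 (SE), limma adjusted p = 9.27e-06), and CASP1 and ESB1, which overlap other loci, fell by 0.76 and 0.55. The labelled mutant values were the lower pair for CASP5. Of 23 root hair and wall genes 9 rose and 0 fell (7 and 0 after rescaling). The share that rose, 39.1%, was near the 34.6% of all genes, of which 22.2% fell. CSLD3, a cellulose synthase-like gene of root hair growth, rose by 0.33 (limma adjusted p = 0.00247), and SHV2 (COBL9), LRX1 and EXPA7 by 0.71, 1.04 and 1.02. This list depends on single libraries: 17 rose without WT replicate 1, 5 without labelled mutant replicate 1 and 4 without labelled mutant replicate 2. EXPA7 was at 7.87 and 3.597 FPKM in the WT libraries, which themselves differ, and at 11.7 and 12.2 FPKM in the labelled mutant. The summed seed and embryo markers were at 55.2 and 17.8 FPKM in WT and 18.3 and 33.9 FPKM in the labelled mutant, groups that overlap, with 1 fall among 6 tested, EM1. The calls in this list also changed when single libraries were left out.

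Of 43 genes of cell division 23 rose and 8 fell (18 and 9 after rescaling), 53.5% and 18.6% against 34.6% and 22.2% of all genes, and the falls were 5 without WT replicate 2. The D-type cyclin genes CYCD3;3 and CYCD3;1, which drive entry into the cycle, rose by 0.71 and 0.65, and CYCA2;3 was at 2.32 and 2.21 FPKM in WT and at 5.43 and 6.47 FPKM in the labelled mutant (log2 change 1.08 ± 0.12 (SE), limma adjusted p = 1.09e-04). The replication clamp gene PCNA1 rose by 0.86. ACK2 (KRP4), an inhibitor of cyclin-dependent kinases, was at 41.996 and 44.4 FPKM in WT against 22.9 and 20.9 FPKM, the lower pair being the labelled mutant. With a mean of at least 5 FPKM required, 12 members rose. Against UBP13oe 6 of the 43 were higher in the labelled mutant and 19 lower, where 20.8% and 32.1% of all genes were. Against cry2-1 7 were higher and 18 lower (24.6% and 32.4% of all genes), and against CRY2oe 15 and 3 (26.4% and 23.5%). Only 4 stood apart as higher and 3 as lower, where 12.8% and 12.4% of all genes did.

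Set directly against UBP13oe, the line with the opposite change in gene dosage by its label, the labelled mutant was higher for 4158 genes (20.8%) and lower for 6403 (32.1%). Against cry2-1 it was higher for 4904 (24.6%) and lower for 6467 (32.4%), and against CRY2oe higher for 5278 (26.4%) and lower for 4699 (23.5%). After median-of-ratios scaling these counts were 5035 and 5384 against UBP13oe, 5436 and 5714 against cry2-1, and 4926 and 5142 against CRY2oe, where the balance turned. These 3 comparisons and the one with WT share the labelled mutant libraries. For the photosynthesis list the labelled mutant was higher than UBP13oe in 49 of 54 genes and lower in 0, and for the clock list higher in 13 of 35 and lower in 17. PIF4 was at 43.1 and 41.2 FPKM in UBP13oe, between the labelled mutant and WT (log2 difference -0.90 ± 0.06 (SE), limma adjusted p = 8.72e-06, labelled mutant minus UBP13oe). CCA1 was at 23.4 and 24.0 FPKM in UBP13oe, 18.16 and 16.6 FPKM in cry2-1 and 23.7 and 24.8 FPKM in CRY2oe, all below the labelled mutant. TOC1 was at 74.1 and 76.6 FPKM in UBP13oe, above the labelled mutant (log2 difference -0.61 ± 0.05 (SE), limma adjusted p = 2.19e-05, labelled mutant minus UBP13oe). CRY2oe held 96.4 and 99.9 FPKM of TOC1. In cry2-1 it was at 52.5 and 51.6 FPKM, not called different from the labelled mutant (limma adjusted p = 0.143).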

How the data were processed

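The authors deposited 1 table per library with an FPKM value, a status and confidence bounds per gene, 10 libraries in all. The tools STAR, with no version, and Cufflinks 2.1.1 and the genome TAIR10 are named in the submitters' processing notes. The kit was directional per the labels' protocols, but no source used here says whether counting used strand, so genes and antisense partners cannot be told apart. The deposited FPKM are not counts, and no count test was run. Confidence bounds were not used. Values with a failed status were set missing.

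Genes were matched on identifier, kept at 1 FPKM or more in 2 or more libraries, and tested as log2(FPKM + 1), pseudocount 1, by limma 3.58.1 (R 4.3.3) with a mean for each of 5 genotypes, a trend of variance with expression and Benjamini-Hochberg adjustment over all genes at 0.05. The fit pools the spread of all 10 libraries, leaving 5 residual degrees of freedom, and was checked on simulated data. Tables, depth and figures used matplotlib 3.10.9, SciPy 1.17.1, pandas 2.3.3 and numpy 2.4.6 under Python 3.11.15.

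Depth was taken from genes of 1 exon, where FPKM of up to 6 fragments fall on steps: 96.6% to 99.1% of values were whole within 0.1 fragment. A floor of 3 fragments is 0.0992 to 0.195 FPKM for a gene of 1 kb. Intervals of counting error were not computed from FPKM.

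The members and the 28 lists, including marker lists, were chosen with earlier results of these data known; of 772 symbols 768 matched. The named genes are UBP12, UBP13, CRY2, CRY1 and the gene models around the proteases, the 12 largest changes each way among called and annotated genes with non-overlapping groups, a mean of at least 5 FPKM in the higher genotype and a length of at least 300 bp, and the 4 called members of each list with the smallest adjusted p. Some list members are not reported here. Other list members are named after their values were seen, as are the branched-chain list and the gene families. Alternatives were another pseudocount (0.1), median-of-ratios scaling, a replicate block, no filter, a mean of 5 FPKM, the 4 libraries alone, no variance trend, each library left out, failed values as 0, and nuclear genes alone.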

Additional observations from a re-analysis of the deposited data

How the results depend on the processing

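No gene called against WT turned direction in any setting among those called in both, and 9810 of 11344 calls held under median-of-ratios scaling. Leaving out a library gave 5724 to 6110 genes higher and 3767 to 4226 lower than WT. The same step gave 3193 to 3572 higher and 4905 to 5597 lower than UBP13oe, 3996 to 4411 and 5225 to 5606 for cry2-1, and 4030 to 4545 and 3481 to 3948 for CRY2oe. The 4 libraries alone gave 5442 and 3530 against WT. With the replicate block 6847 were higher and 4430 lower than WT, and the block ended no call of a named gene; the labels name no shared batch, and the deviations of same-numbered replicates correlated at -0.0761 between WT and ubp12ubp13 and at -0.0884 to 0.146 over all pairs of genotypes, so the numbers were not taken as pairs. The list counts were also chosen as results after seeing the data. Over 131 named genes and 1687 alternative values, 14 lost their call and 1 turned: UBP12, at -0.85 (limma adjusted p = 0.758) with its failed estimate taken as 0, an alternative chosen after seeing the data, as was that of nuclear genes alone. Calls lost were for CUC2, GI, CRY1, TFL2, EXPA7 and LRX1. UBP12 has no value without ubp12ubp13 replicate 1. The plastid share difference was 4.66 to 7.23 percentage points without 1 library, and 0.966 over the 60 plastid protein genes of 300 bp or longer, as the tRNA, rRNA and shorter genes left out carry most of the share. Where a library is left out, the lone sample is assumed to vary like the other groups. Depth limits genes below about 0.2 FPKM, and 2 libraries per genotype limit every p-value.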

Other observations

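Several gene families that the comparison does not cover also moved, all chosen after their values were seen. Of 15 alpha and beta tubulin genes 12 fell and 0 rose under both scalings, with a median log2 change of -0.41. As shares, 80.0% fell and 0% rose, against 22.2% and 34.6% of all genes. TUB4 was at 643 and 646 FPKM in WT and at 348 and 329 FPKM in the libraries labelled ubp12ubp13 (log2 change -0.93 ± 0.05 (SE), limma adjusted p = 2.44e-06), and TUB8 at 120.1 and 119 FPKM in WT against 66.6 and 57.8 FPKM. The labelled mutant values were the lower pair for both, while TUB1, TUB2 and TUB3 changed by 0.31, 0.02 and -0.04 and passed no test. Tubulin genes share much sequence, and counting could divide fragments among them. Of 17 autophagy genes 9 fell and 0 rose (11 and 0 after rescaling), 52.9% and 0% against 22.2% and 34.6% of all genes. The falls were led by ATG8E, which encodes a ubiquitin-like protein of autophagosome membranes, at 299 and 301 FPKM in WT and 159 and 159 FPKM in the labelled mutant (log2 change -0.91 ± 0.04 (SE), limma adjusted p = 1.04e-06). Of 312 ribosomal protein genes 212 rose and 21 fell (185 and 31 after rescaling), 67.9% and 6.73% against 34.6% and 22.2% of all genes. Of 169 pentatricopeptide repeat protein genes, which act on organelle RNA, 59 rose and 7 fell (45 and 9 after rescaling). Their share that rose, 34.9%, was near that of all genes, and the share that fell, 4.14%, was smaller.

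Against WT, genes of defence receptors rose more often, and fell less often, than all genes, of which 34.6% rose and 22.2% fell. Of 109 genes annotated as disease resistance proteins 59 rose (54.1%) and 5 fell (4.59%), and 51 and 11 did after rescaling. Against UBP13oe 19 of them were higher and 35 lower (20.8% and 32.1% of all genes). Against CRY2oe 19 were higher and 20 lower (26.4% and 23.5%), and against cry2-1 52 and 15 (24.6% and 32.4%). As higher 15 stood apart and as lower 2, where 12.8% and 12.4% of all genes did. Of 19 cysteine-rich receptor-like kinase genes 10 rose (52.6%) and 0 fell, and 10 and 2 did after rescaling. Against UBP13oe 7 of these 19 were higher and 8 lower, against CRY2oe 6 and 2, and against cry2-1 8 and 4. CRK40 was at 6.45 and 6.33 FPKM in WT and at 20.6 and 21.0 FPKM in the labelled mutant (log2 change 1.56 ± 0.05 (SE), limma adjusted p = 4.87e-07), and CRK30 at 0.0254 and 0 FPKM in WT against 1.81 and 1.60 FPKM. CRK7 was listed at 0 in both WT libraries and stood at 1.29 and 1.02 FPKM in the labelled mutant. The labelled mutant libraries were the higher pair for all 3. For CRK30 and CRK7 they alone, among the libraries compared, met the filter of 1 FPKM.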
